A study of Mus musculus with 19 samples.

Results

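The 41 genes described here encode chromatin regulators: subunits of the BAF nucleosome remodellers, Polycomb proteins, and enzymes that add or remove marks on histones and DNA. They were taken by name as a list of 41 among 21887 protein-coding genes of the GRCm38 annotation, by a rule that uses no measured value, although the list was drawn up with earlier results of these data known. All 41 were found in the annotation. ATAC-seq, which uses a transposase to cut and tag open DNA, had been run in 19 bulk libraries of Prom1+ neural progenitors pulled magnetically from mouse forebrain at embryonic day 14. By title there were 4 control libraries (genotype Foxc1 WT, no diet), 4 mutant libraries (Foxc1 hith/LacZ, no diet), 5 control libraries with the RA diet and 6 mutant libraries with the RA diet. Library 1 of the mutants carries a mutant title but a Foxc1 WT genotype label. It was grouped by its title. The leading results that involve it are given with and without it, and the others only with it. The labels name neither sex nor litter, and do not say whether the libraries of a group came from separate embryos, so p-values measure the spread between these libraries, which may be technical.

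Foxc1 is a transcription factor of the meninges, the membranes around the brain, which are a source of retinoic acid (RA) for the developing forebrain. The hith allele lowers Foxc1 function and the LacZ allele replaces the gene with a reporter. Both act in the whole embryo, so a difference in progenitors need not arise in them.

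BAF complexes use ATP to slide and evict nucleosomes. Their make-up changes as neural progenitors become neurons, when the actin-like subunit Actl6a is exchanged for Actl6b. Polycomb repressive complex 2 (PRC2) methylates a lysine of histone H3 through Ezh1 or Ezh2, complex 1 (PRC1) marks histone H2A and compacts chromatin, and Kdm6a and Kdm6b remove the PRC2 mark.

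Each library came as a list of peak summits with a score, −log10 of the peak's q value. The longest list held 122591 summits and that of mutant library 4 with the diet was the shortest. To set libraries side by side, the best-scoring summits of each, up to the length of the shortest list (the matched length), were used unless stated. A summit within 1 kb of the outermost start or end of a gene is called an end summit. Its rank in the library, where rank 1 is the highest score, measures its strength. The score of the last summit kept ran from 1.3 in mutant library 4 with the diet to 53.7 in control library 4. In mutant libraries 3 and 4 it was 18.1 and 5.42, below the 39.9 and 50.9 of mutant libraries 1 and 2. In a bulk library, fewer open cells and less open DNA per cell cannot be told apart. Of 8 neural progenitor markers, Sox2, Emx2, Fabp7 and Vim had an end summit in every library, as did Tubb3 and Map2 of 4 neuron markers. None of the 4 endothelial markers Cldn5, Pecam1, Cdh5 and Tie1 had one in any library. No meningeal, microglial or erythroid marker, 4 of each, had one in every library. Summits assigned to 4 neuron markers summed to 10 to 12 in the controls, 11 to 14 in the mutants, 12 to 20 in controls with the diet and 13 to 17 in mutants with the diet. The part of neurons in the results below was not tested.

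The 250 bases upstream of the RefSeq start site (GRCm38.p6) are shown for 5 members on which the results below turn. Actl6a and Actl6b are the exchanged pair, with the strongest and one of the weaker end summits. Ezh2 carries the PRC2 enzyme's strong summit, Cbx8 had the largest difference in rank between mutants and controls, and Kdm6a is the X-linked member with a wide spread between libraries. Capitals mark matches, on either strand, to the letters searched: GGGCGG for the SP and KLF factors, CCAAT for NF-Y, and AGGTCA for a retinoid receptor half-site. The windows are chr3:32708296-32708545 on the plus strand for Actl6a, chr5:137553296-137553545 on the plus strand for Actl6b, chr6:47595031-47595280 on the minus strand for Ezh2, chr11:119040914-119041163 on the minus strand for Cbx8, and chrX:18162325-18162574 on the plus strand for Kdm6a. Each reads toward its gene, 5′ to 3′.
Actl6a: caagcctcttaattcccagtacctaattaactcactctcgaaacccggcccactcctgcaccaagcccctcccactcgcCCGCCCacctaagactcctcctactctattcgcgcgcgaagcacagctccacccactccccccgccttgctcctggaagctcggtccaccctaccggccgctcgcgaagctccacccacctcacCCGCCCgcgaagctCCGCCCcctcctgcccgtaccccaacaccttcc
Actl6b: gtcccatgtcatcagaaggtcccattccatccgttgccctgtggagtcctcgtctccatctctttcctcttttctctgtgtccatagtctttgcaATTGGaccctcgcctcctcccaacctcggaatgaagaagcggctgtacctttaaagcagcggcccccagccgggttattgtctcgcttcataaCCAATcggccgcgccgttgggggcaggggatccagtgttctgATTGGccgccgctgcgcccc
Ezh2: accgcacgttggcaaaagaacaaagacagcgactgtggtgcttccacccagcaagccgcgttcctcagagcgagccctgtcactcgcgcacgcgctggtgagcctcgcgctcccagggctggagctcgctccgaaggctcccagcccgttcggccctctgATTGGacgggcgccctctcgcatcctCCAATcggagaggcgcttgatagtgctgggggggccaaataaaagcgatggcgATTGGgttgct
Cbx8: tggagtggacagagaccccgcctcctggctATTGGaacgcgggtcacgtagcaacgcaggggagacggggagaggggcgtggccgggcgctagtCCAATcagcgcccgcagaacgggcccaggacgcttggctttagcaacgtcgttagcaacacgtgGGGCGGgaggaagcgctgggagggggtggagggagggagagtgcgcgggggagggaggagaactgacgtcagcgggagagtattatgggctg
Kdm6a: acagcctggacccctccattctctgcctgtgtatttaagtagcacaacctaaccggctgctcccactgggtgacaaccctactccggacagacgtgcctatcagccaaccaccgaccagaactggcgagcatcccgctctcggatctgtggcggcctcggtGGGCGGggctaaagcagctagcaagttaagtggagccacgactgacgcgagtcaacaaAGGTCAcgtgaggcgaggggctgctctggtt

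The Actl6a stretch held 3 SP/KLF matches, all in its opposite-strand spelling. Those of Actl6b and Ezh2 each held 3 NF-Y matches, the Cbx8 stretch held 2 of these and 1 SP/KLF match, and the Kdm6a stretch held 1 SP/KLF match and 1 retinoid half-site. In the full RefSeq windows, which also take in the first 50 bases after the start, 34 members had 42 promoters. SP/KLF letters were in 83.3% of those 42, against 46.2% of 21263 promoters of all genes. The letters of NRF1, GCGCATGC, were in 11.9% against 3.52%. The letters of YY1, AAGATGGCG, were in 7.14% against 1.83%, and those of E2F, TTCCCGC, in 11.9% against 5.95%. NF-Y letters were in 33.3% against 38.2%, ETS letters, CCGGAAG, in 9.52% against 11.6%, and the retinoid half-site in 9.52% against 14.7%. A SOX sequence, ACAATGG, was in 2.38% against 2.92%, and that of RBPJ, the Notch pathway's DNA-binding factor, GTGGGAA, in 0% against 6.07%. Member promoters were rich in CpG: the ratio of observed to chance CpG pairs had a median of 0.891, against 0.567 over all promoters, and 37 of the 42 lay above 0.6. The letters of SP/KLF, NRF1, E2F, YY1 and ETS themselves contain a CpG. No printed match overlaps another, and a match is a run of letters and not a binding site.

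An end summit was found in every one of the 19 libraries for 24 of the 41 members (58.5%), against 36.6% of all protein-coding genes. In all deposited summits 30 of 41 had one, against 43.1%. With the window widened to 2 kb, 30 of 41 had a summit in every library, against 40.2%. Of the 11 roles, the ATPases and actin-like subunits of BAF were complete. Both ATPases, Smarca2 and Smarca4, had an end summit in every library, with median ranks of 2426 and 3615. Of 6 BAF core subunits, 4 had one in every library (Smarcb1, Smarcc1, Smarcc2 and Smarcd1), while Smarcd3 and Smarce1 each had one in 17. Of the 4 subunits that define BAF variants, Arid1a and Pbrm1 had one in every library, Arid2 in 15 and Arid1b in 5. Among PRC2 genes, Ezh2, Eed, Suz12 and Jarid2 had one in every library, Ezh1 in 16 and Phf19, an accessory subunit, in none. Among PRC1 genes, the catalytic Ring1 and Rnf2 and the reader Cbx8 had one in every library, Bmi1 in 18 and Cbx2 in 17. All 3 deacetylases, Hdac1, Hdac2 and Hdac3, had one in every library, and their corepressor Ncor1 in 18. Crebbp and Ep300, the paired acetyltransferases, had one in 19 and 17. Of the CHD remodellers, Chd8 had one in every library, Chd4 in 5 and Chd7 in 4. Kdm1a, a histone demethylase, and Tet1, which oxidises methylated DNA, had one in 19, and Tet3 in 17.

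**Figure D1:**
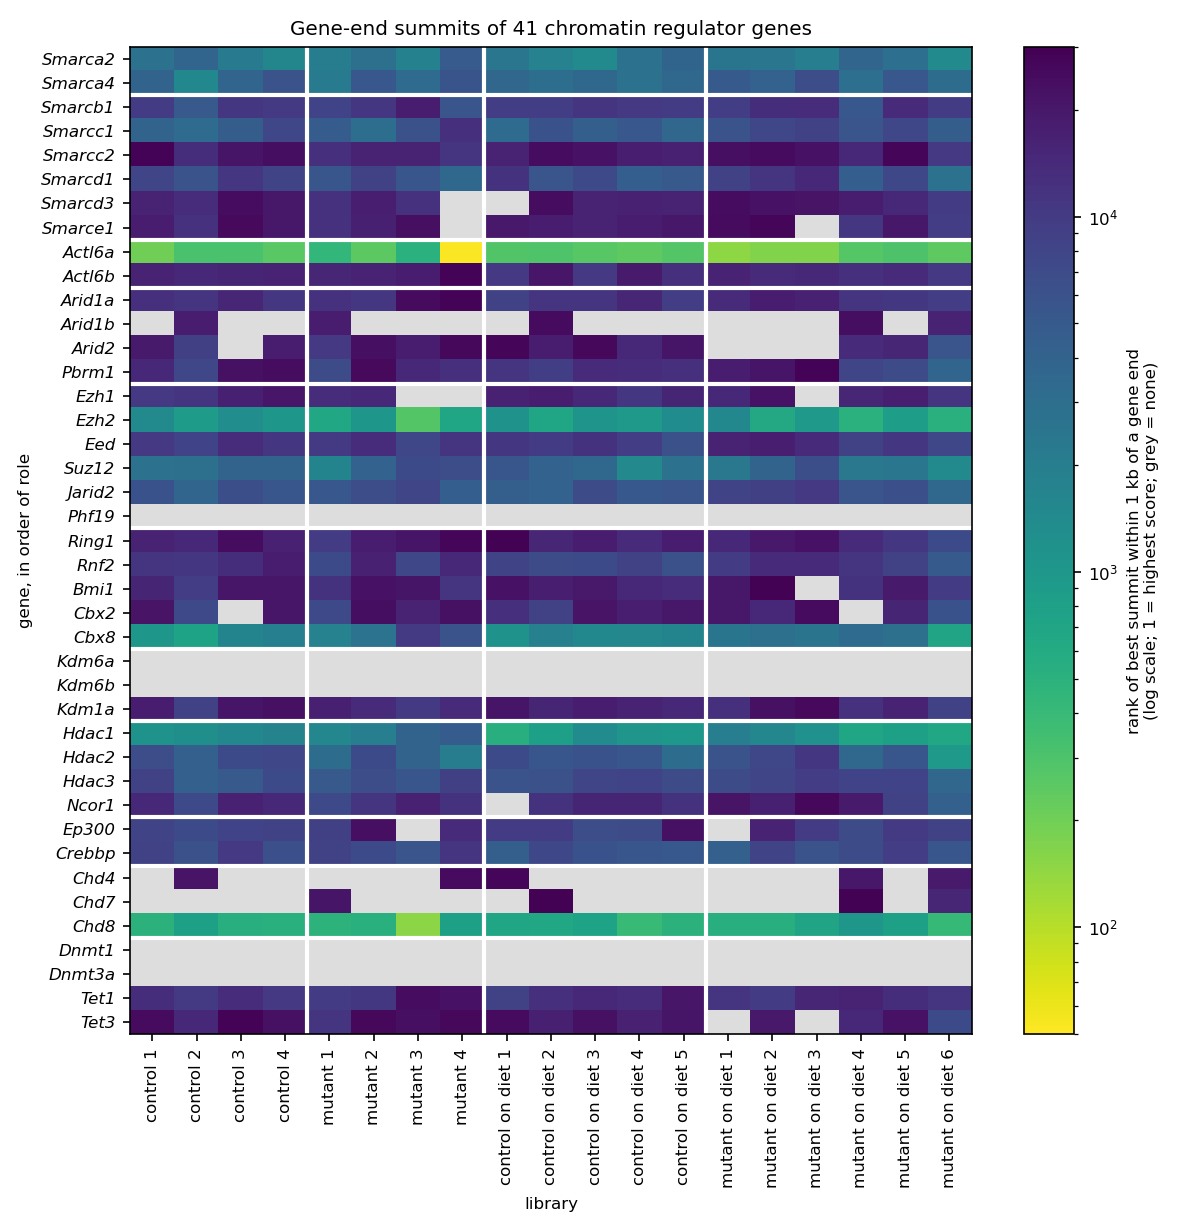
Rank of the best summit within 1 kb of a gene end for each of the 41 genes (rows, ordered by role) in each of the 19 libraries (columns, by group), on a log colour scale where light colours are nearer rank 1 and grey is no end summit. Actl6a, Chd8, Ezh2, Hdac1 and Cbx8 stand out as light rows across all groups, and 5 rows are grey throughout.

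A further 6 members, Smarcd3, Smarce1, Bmi1, Ncor1, Chd7 and Tet3, had an end summit in every library once all deposited summits were taken. For Chd7, a helicase of neural crest and brain development, those summits were weak: its end summit ranked between 15076 and 71538 in the full lists. Chd4, the NuRD complex ATPase, had one in 18 of the full lists, and Arid1b in 17. Their end summits thus fell mostly below the matched length.

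5 members had no end summit in any library: Phf19, Kdm6a, Kdm6b, Dnmt1 and Dnmt3a. For some of these, RefSeq lists start sites well inside the outermost gene end. Kdm6a had a summit at its listed start site, 1713 bp inside, in all 19 libraries. Dnmt1, the maintenance DNA methyltransferase, had one in all 19 at start sites 6909 and 7265 bp inside. Dnmt3a, which sets new DNA methylation, had one in 18 at start sites 5421 to 22699 bp inside. Kdm6b had no listed start site to check, but a region 1358 bp inside one of its ends was present in all 19 libraries. With start sites counted beside gene ends, 27 members were occupied in every library, against 40.1% of all genes. Phf19 still had none. Smarcd3, a subunit with tissue-specific use, ran the other way: its end summit in 17 libraries was at an outer end, and its listed start site, 9380 bp from an end, had a summit in 0 of 19.

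Summits sat close to the listed start sites. Over 32 members with a strand and a summit, the best summit lay at a median of −127.5 bp, that is upstream, and 75.5% of 572 gene and library pairs lay within 250 bp. In 26 genes the median position was upstream of the start site used and in 6 downstream. For genes with several start sites, such as Jarid2, Dnmt1 and Dnmt3a, the site used was not always the nearest. The distances and counts given here depend on that choice. Dnmt1, counted as upstream, had distances from −296 to 324 bp and would lie downstream if measured from the nearest site. Kdm6a, Smarcc1 and Ezh2 kept nearly the same place in all libraries, at −175 to −167, −141 to −90 and −133 to −105 bp. Actl6a's summit lay 23 to 57 bp inside the gene. Ep300, Crebbp and Arid1b had medians of −855, −801 and −739 bp, the farthest upstream.

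**Figure D2:**
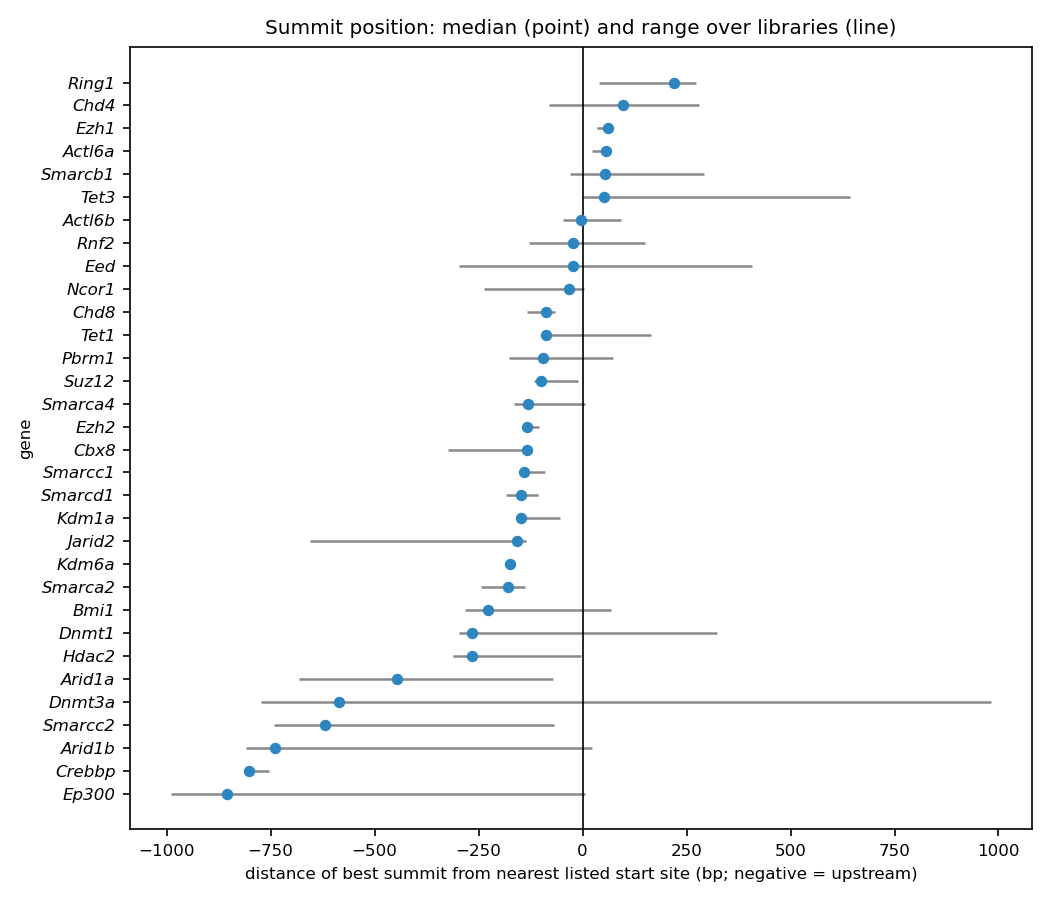
Distance in bp of the best summit from a listed start site within 1 kb for 32 genes, negative values upstream. Points are medians and lines the range over libraries. For genes with several start sites the one used was not always the nearest, whatever the axis label says. Most points fall just left of 0, 26 of 32 being upstream of the start site used.

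The strength of end summits spanned nearly the whole list. The 24 members with an end summit in every library had median ranks from 261 to 17429, and the median of these medians was 6620, against 5290 over the 8003 genes of that kind. Of the 24, 3 had a median rank in the top 1000 (12.5%), against 957 of all 8003. These were Actl6a, Chd8 and Ezh2, and the members were thus not unusually strong as a group. Hdac1 followed at 1253, Cbx8 at 1863 and Smarca2 at 2426. Smarcc2, Ring1 and Kdm1a were farthest from the top, at 17429, 16731 and 16326.

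Among the paired genes, the actin-like subunits differed most. Actl6a, the progenitor subunit, ranked 198, 316, 310 and 257 in the controls and 432, 248, 505 and 52 in the mutants. It ranked 285, 294, 261, 243 and 280 in controls with the diet, and in mutants with the diet it had a lowest rank of 147 and a highest of 300. Its summit was among the top 505 of every library. Actl6b, the neuronal subunit, ranked between 10415 and 27925, so every library placed it far below Actl6a. An end of Mrpl47 lies within 1 kb of 1 of the 2 ends of Actl6a, and one of Tfr2 likewise for Actl6b. Which end is shared was not examined, and only a summit at a shared end cannot be given to one gene. The ranked summits lay near the listed start sites, at 23 to 57 bp for Actl6a and −46 to 93 bp for Actl6b.

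The PRC2 enzymes also differed, while the BAF ATPases overlapped. Ezh2, the PRC2 enzyme of dividing cells, had a median rank of 960 and was in all libraries. Ezh1, the enzyme of resting cells, had a median of 14926 where present and was missing in mutant libraries 3 and 4 and in mutant library 3 with the diet. Smarca2 and Smarca4 had overlapping ranks, 1392 to 4806 and 1530 to 6643. Arid1a, with a median of 11583, was in all 19 libraries and Arid1b in 5. Dnmt1's start-site summit ranked 974 to 6816, and Dnmt3a's 13664 to 29062 where present. Kdm6a's start-site summit ranked 135 to 3659, and Kdm6b, which had no end summit, had 2 to 4 summits assigned to it in each library.

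13 of the 41 members have an end of another protein-coding gene within 1 kb. They include Chd8 with Supt16, Hdac1 with Marcksl1, Ezh1 with Cntnap1, Pbrm1 with Gnl3, Jarid2 with Dtnbp1 and Kdm6b with Dnah2 and Tmem88. When each summit was given only to the gene whose end was nearest within 100 kb, a shared summit could go to the neighbour. Pbrm1 then had a mean of 0.37 summits per library and Arid2 0.053.

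By that assignment, Arid1b had the most summits, a mean of 10.9 (range 8 to 14), although its own end summit was within the matched length in only 5 libraries. Jarid2, a DNA-binding PRC2 subunit, had 8.68 (7 to 11) and Chd7 8.47 (6 to 12). In the full lists they had 31.2, 21.4 and 29.9. These are long genes, of 353360, 190870 and 178048 bp. Summits were joined into regions where neighbours lay within 200 bp and at least 2 libraries shared them, which gave 44878 regions, 128 of them assigned to 38 members. Of these 128, 34.4% were present in all libraries, against 29.0% of all regions. Near gene ends the shares were 48.7% and 53.7%, and beyond 1 kb 28.1% and 20.3%. Arid1b had 21 regions, 17 of them more than 10 kb from an end, Chd7 13 with 11 and Jarid2 11 with 9.

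Whether Foxc1 genotype or the RA diet moved these summits was asked in 6 contrasts with limma: mutants minus controls, each genotype's diet libraries minus its libraries with no diet, mutants minus controls with the diet, mutants with the diet minus controls, and the difference between the diet effects (the interaction). The comparisons share control or mutant libraries. On summits per gene, 0 of 35 members tested passed an adjusted p of 0.05 in any contrast. Over all 10830 genes the shares called were 0% for mutants minus controls, 0% for the diet in controls, 0.0185% for the diet in mutants, 0.0277% for mutants minus controls with the diet, 0.0277% for mutants with the diet minus controls, and 0.00923% for the interaction. At an unadjusted p of 0.05, in the same order, 2, 3, 1, 2, 2 and 1 of the 35 members passed, against 5.72%, 4.24%, 6.8%, 3.05%, 6.68% and 3.48% of all genes. For 35 members these counts were near the shares over all genes. The members' median difference was 0 in every contrast, as was that of all genes, and 13 of the 35 had the same number of summits in all libraries.

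Actl6a had the smallest p of any member in 4 of these contrasts. Controls had 2, 2, 1 and 2 summits assigned to it and every one of the other 15 libraries had 1, which gave log2(summits + 0.5) differences of −0.55 ± 0.12 (SE) for mutants minus controls, −0.55 ± 0.11 for the diet in controls and −0.55 ± 0.11 for mutants with the diet minus controls. The limma adjusted p-values were 0.39, 0.206 and 0.0923. For mutants minus controls it was 0.215 without mutant library 1. The added summit lay at chr3:32698372-32698373, 10174 bp upstream of the gene. It ranked 24958, 20823 and 29078 in controls 1, 2 and 4, of which the last is close to the matched length. The full lists also had it in control 3 at 32860, in 5 of 5 controls with the diet at 29130 to 41925, in 3 of 4 mutants at 29146 to 58711, and in 2 of 6 mutants with the diet at 41120 and 58155. In all deposited summits the difference was −0.063 for mutants minus controls and 0 for the diet in controls, and it was −0.49 for mutants with the diet minus controls (limma adjusted p = 0.202). The difference was 0 with lists cut shorter, with gene ends within 10 kb or with the gene body. This was fixed beforehand, since these settings leave the added summit out by its rank or its distance. Without control library 3 Actl6a was called in these 3 contrasts and the interaction, for example at a limma adjusted p of 0.000634 for the diet in controls.

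Kdm6b had 4 summits in each of the 4 controls and 4, 3, 2 and 2 in the mutants. It had 4 in each control with the diet, and 3, 3, 3, 4, 3 and 4 in mutants with the diet. Its difference for mutants minus controls was −0.51 ± 0.15 (limma adjusted p = 0.666), and without mutant library 1 it was −0.69 (adjusted p = 0.215). In all deposited summits its sign turned, to 0.11. For the diet in mutants it was 0.27 ± 0.14 (limma adjusted p = 0.718). Smarca2 had 3 to 4 summits in controls and 4 to 5 in controls with the diet (0.30 ± 0.13, limma adjusted p = 1). For mutants minus controls with the diet it was −0.30 ± 0.11 and for the interaction −0.30 ± 0.18 (limma adjusted p = 1 for both). Eed, the PRC2 subunit that binds the PRC2 mark, had 4 in every library of controls and mutants and 3 or 4 in mutants with the diet (−0.24 ± 0.095, limma adjusted p = 0.595 against mutants and 0.628 against controls). Without mutant library 1 the limma adjusted p against mutants was 0.614. Tet3 was −0.32 ± 0.13 for mutants minus controls with the diet, with a limma adjusted p of 1. None of these passed.

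On the log2 rank of the end summit, where a positive difference is farther from the top, 0 of 24 members passed in any contrast. Over all 8003 genes, in the same order of contrasts, 0%, 0%, 0.0125%, 0%, 0% and 0% were called. At an unadjusted p of 0.05, 4, 1, 2, 0, 0 and 0 of the 24 passed, against 16.6%, 4.81%, 18.1%, 1.64%, 12.3% and 6.05% of all genes. The 4 and 2 members in the contrasts with the mutants are 16.7% and 8.33%. Without mutant library 1, they were 4 (16.7%) for mutants minus controls, against 26.5% of all genes, and 6 (25%) for the diet in mutants, against 24.5%. These member shares were near or below those of all genes. The median of all genes itself moved by 0.14 for mutants minus controls and by 0.13 for mutants with the diet minus controls. The members' medians there were 0.05 and −0.10.

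Cbx8, a reader of the PRC2 mark within PRC1, had the largest of these differences. It ranked 1010, 728, 1653 and 1901 in controls and 1752, 2617, 10079 and 5908 in mutants. It ranked 1153, 1863, 1525, 1543 and 1676 in controls with the diet, and 2492, 2844, 2575, 3203, 2818 and 714 in mutants with the diet. Mutant libraries 3 and 4 lay farthest from the top, and mutant library 1 fell within the range of the controls. The difference for mutants minus controls was 1.72 ± 0.49 (SE; limma adjusted p = 0.212). It was 2.13 without mutant library 1 (adjusted p = 0.0493) and 1.93 without mutant library 2 (adjusted p = 0.0248). Without mutant library 3 it was 1.28 (adjusted p = 0.72). In this contrast Cbx8 was called only when 1 of the 2 mutant libraries nearest to the controls was left out. For mutants with the diet minus controls it was 0.84 ± 0.44 (limma adjusted p = 0.444), and the interaction was −1.19 ± 0.64 (limma adjusted p = 0.748).

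Hdac1, a deacetylase of several corepressor complexes, ranked 1114, 1253, 1525 and 1709 in controls and 1551, 1921, 3900 and 4617 in mutants. With the diet it ranked 550, 819, 1382, 1078 and 1002 in controls, and 1954, 1547, 1191, 698, 782 and 646 in mutants. The same 2 libraries, mutants 3 and 4, were farthest from the top, and mutant library 1 lay within the range of the controls. The diet difference in mutants was −1.38 ± 0.39 (limma adjusted p = 0.0848). It was −1.65 without mutant library 1 (adjusted p = 0.0263) and −1.54 without mutant library 2 (adjusted p = 0.0309). Without mutant library 4 it was −1.12 (adjusted p = 0.278). For mutants minus controls it was 0.97 ± 0.43 (limma adjusted p = 0.261), and 1.24 without mutant library 1 (limma adjusted p = 0.0953). The part of the low scores of libraries 3 and 4 in these differences was not tested. A covariate for the number of summits cannot test it, because lists of nearly the same length differed in score. Mutant libraries 1 and 3 had 108298 and 108407 summits, with last kept scores of 39.9 and 18.1. Hdac1's diet difference in mutants was −1.15 (limma adjusted p = 0.123) with the number of summits as a covariate. On ranks as a percentile of all deposited summits it was −0.77 (limma adjusted p = 0.27), where the median of all genes was itself 0.58. Cbx8's difference for mutants minus controls was 1.73 (limma adjusted p = 0.213) with that covariate. On percentile ranks it was 1.82 (limma adjusted p = 0.663), where the median of all genes was 0.22.

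**Figure D3:**
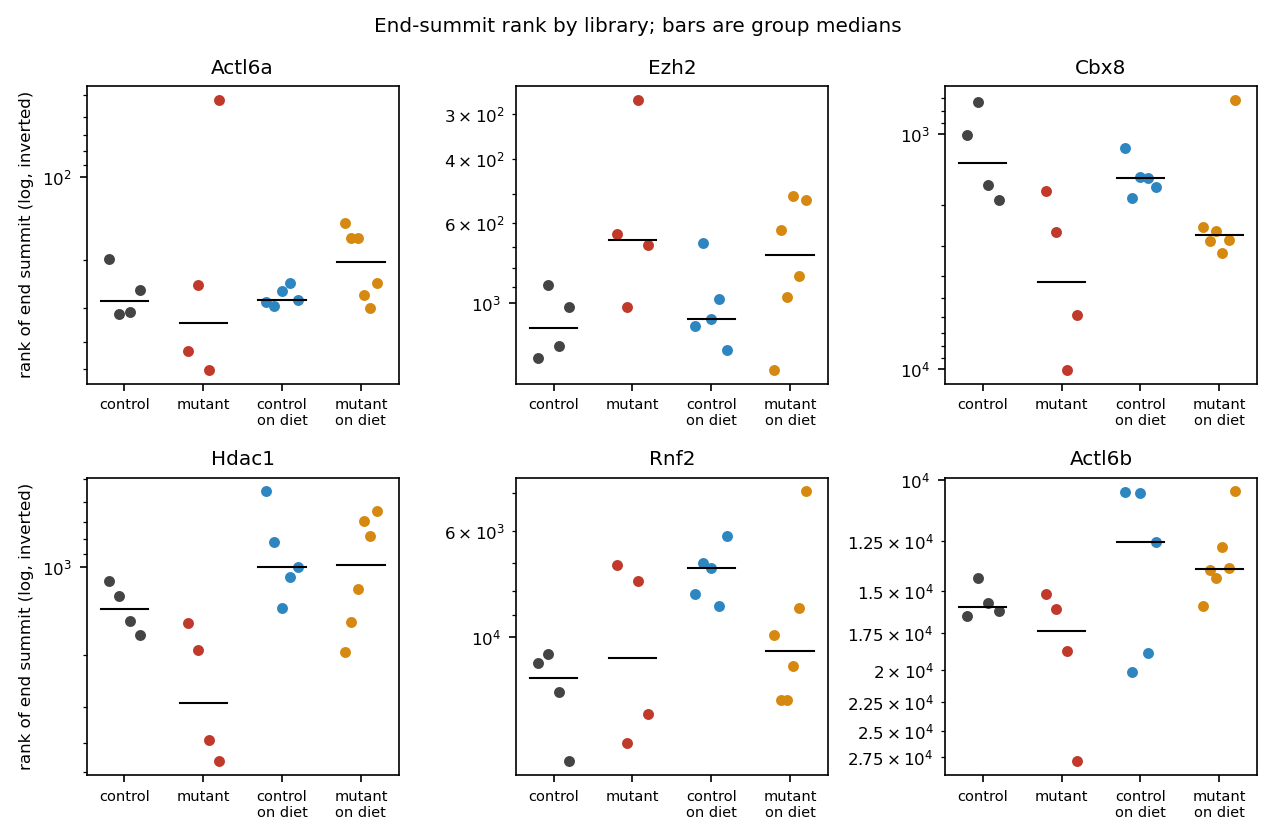
End-summit rank of 6 genes in each library, by group, on inverted log axes so that stronger summits are higher, with bars for group medians. Cbx8 and Hdac1 are lowest in 2 mutant libraries, and Rnf2 in controls (10823 to 18149) lies below all 5 controls with the diet (6147 to 8605).

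Rnf2, the E3 ligase of PRC1, was the one member of 24 whose ranks did not overlap between controls and controls with the diet. It ranked 11326, 10823, 12986 and 18149 in controls and 8135, 7020, 7164, 8605 and 6147 with the diet. The difference was −0.82 ± 0.30 (limma adjusted p = 0.999), and the ranks of the mutants with no diet, 7073 to 16594, reached into both ranges. Over all genes, 5.49% had ranks that did not overlap in this contrast, so 1 of 24 is near the background. In the other contrasts no member's ranks were separate, where 3.04% of genes were for mutants minus controls, 2.01% for the diet in mutants, 0.35% for mutants minus controls with the diet and 4.51% for mutants with the diet minus controls.

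Ezh2 and Smarcc2, a BAF scaffold subunit, had mean ranks nearer the top in mutants than in controls, and neither passed the test. Ezh2 ranked 1418, 890, 1316 and 1027 in controls and 643, 1021, 274 and 692 in mutants (−0.94 ± 0.44, limma adjusted p = 0.281). Smarcc2 was at −0.59 ± 0.28 (limma adjusted p = 0.281). Both overlapped between the groups, and without mutant library 1 they were at −0.98 and −0.54 (limma adjusted p = 0.192 and 0.247). Actl6b was at −0.49 ± 0.22 for the diet in mutants (limma adjusted p = 0.25), and −0.60 without mutant library 1 (limma adjusted p = 0.138). Smarcc1, the paired scaffold subunit, was at 0.57 ± 0.31 for mutants minus controls with the diet (limma adjusted p = 0.999) and 0.51 ± 0.33 for mutants with the diet minus controls (limma adjusted p = 0.555). In the first of these contrasts Rnf2 was at 0.42 ± 0.27 (limma adjusted p = 0.999). Smarcc2 was at 0.62 ± 0.36 for the interaction (limma adjusted p = 0.749), and Crebbp at −0.45 ± 0.28 for the diet in controls (limma adjusted p = 0.999).

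**Figure D4:**
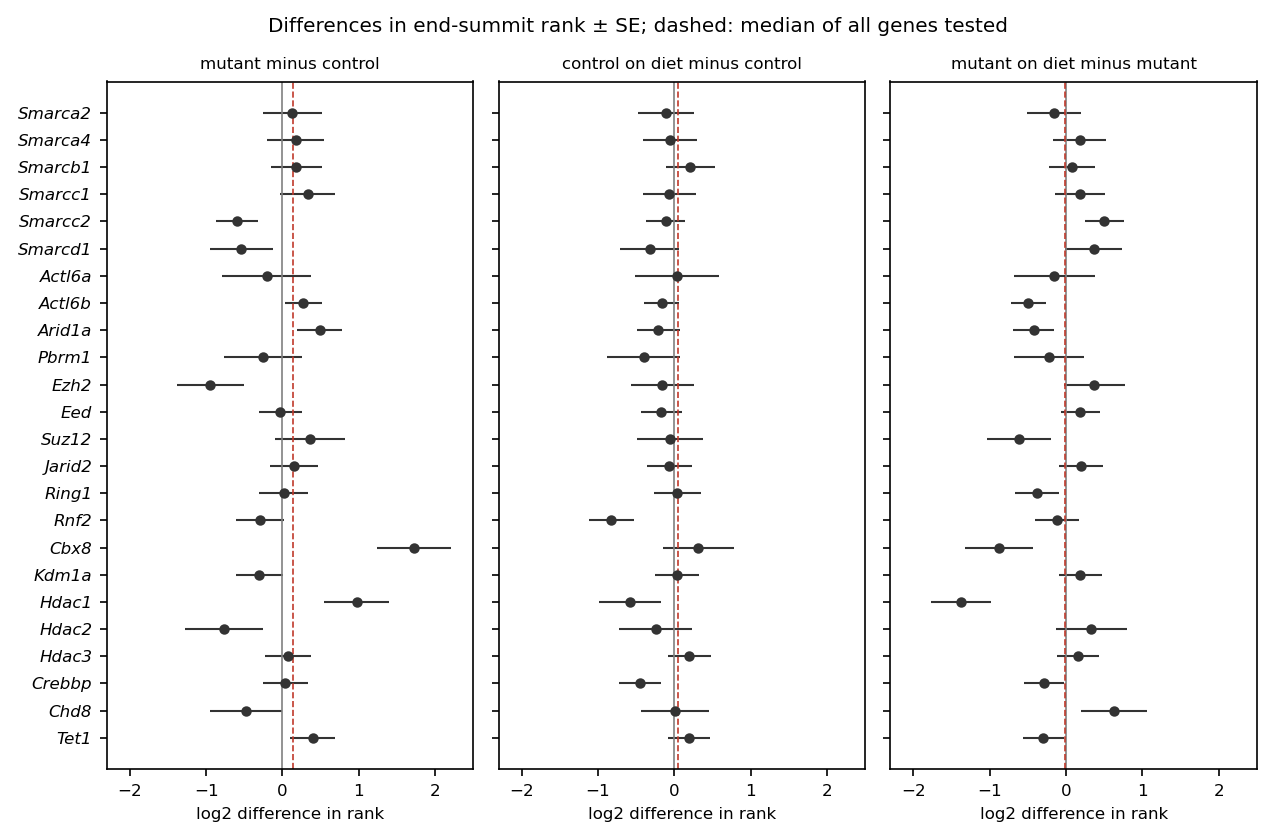
Difference in log2 end-summit rank ± SE for 24 genes in 3 contrasts, with the dashed line at the median of all 8003 genes tested and positive values farther from the top. Cbx8 (1.72) and Hdac1 (−1.38) lie farthest from 0, and no gene passed an adjusted p of 0.05.

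Regions gave 1 member whose presence split the groups. A region within Chd7 at chr4:8750924-8750988, 60554 bp from the gene's nearest end, was in 4 of 4 controls, 0 of 4 mutants, 5 of 5 controls with the diet and 3 of 6 mutants with the diet. Such complete separation between mutants and controls held for 0.152% of all regions, and for 1 of 128 member regions. In the full lists the summit was present in 3 of the 4 mutants, at ranks 37775, 43655 and 56714. Controls had it at 22602, 27610, 27998 and 28562, and controls with the diet at 17066 to 22157. Mutants with the diet had it at 15907 to 35800. The region was picked because it lay within the matched length in all 4 controls and in none of the mutants with no diet. That these mutant ranks lie past those of the controls follows from this choice. Mutant library 4 had no summit there in its full list. No member region was separated in the other contrasts, where 0.401% of regions were for the diet in controls, 0.12% for the diet in mutants, 0.0178% for mutants minus controls with the diet and 0.39% for mutants with the diet minus controls.

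Region presence was then compared by genotype in a stratified exact test that kept libraries of one diet together, and by diet in one that kept libraries of one genotype together. 0 of the 44878 regions passed an adjusted p of 0.05 in either test. For genotype, 3 of 128 member regions had an unadjusted p under 0.05, against 1.67% of all regions. Besides the Chd7 region (exact p = 0.0026), these were an intragenic region of Kdm6b at chr11:69411109-69411334 (exact p = 0.00433) and one of Ezh1 at chr11:101212110-101212151 (exact p = 0.039). The Kdm6b region was in 4 of 4 controls, 1 of 4 mutants, 5 of 5 controls with the diet and 2 of 6 mutants with the diet. In the full lists the Kdm6b summit was in 3 of 4 mutants, at 25255, 29752 and 89227. It was in 6 of 6 mutants with the diet, at 18733 to 34813, against 19589 to 28933 in controls. Some of its absences thus lay just past the matched length. The Ezh1 region was in 4, 2, 5 and 3, and the full lists also had it in mutant library 3, at 53773. For diet, 1 of 128 passed, the Actl6a region already described, against 4.15% of all regions. The adjusted p was 1 for each of these 4. Without mutant library 1 the genotype test again had 3 member regions, with exact p-values of 0.00346 for Chd7, 0.0013 for Kdm6b and 0.0346 for Ezh1, against 2.45% of all regions. The diet test then had 2 of 128, the Actl6a region and one of Ep300 (exact p = 0.0331), against 2.90% of all regions.

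Kdm6a, on the X chromosome, varied widely within groups. Its start-site summit ranked 3659, 1773, 260 and 274 in controls and 448, 547, 199 and 135 in mutants. With the diet it ranked 1557, 3171, 3193, 1589 and 141 in controls, and 2655, 287, 309, 1107, 184 and 648 in mutants. Libraries with the weaker summit also had summits on chromosome Y. 7 libraries had 4 to 6 such summits (control 1, controls 1 to 4 with the diet, and mutants 1 and 4 with the diet) and the other 12 had 0. Kdm6a ranked 1107 to 3659 in the 7 and 135 to 1773 in the 12, and the ranges overlapped. Ddx3x, which like Kdm6a is known to escape X inactivation, ranked 4881 to 9478 in the 7 and 1777 to 4770 in the 12. Eif2s3x and Kdm5c, also known to escape, ranked 7786 to 12938 and 2199 to 6035 in the 7, and 4281 to 10003 and 1728 to 3712 in the 12, so both overlapped. Hprt, which is not known to escape, ranked 6578 to 11620 and 7175 to 13753. The Y-bearing libraries are unevenly spread: 1 of 4 controls, 0 of 4 mutants, 4 of 5 controls with the diet and 2 of 6 mutants with the diet.

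The diet difference in controls for Kdm6a's start-site rank was 0.64 ± 0.94 (limma adjusted p = 0.999), and with presence of a Y summit as a covariate it was −0.99 ± 0.64 (limma adjusted p = 1). The difference of mutants minus controls with the diet went from −1.20 ± 0.85 to 0.19 ± 0.58 (limma adjusted p = 1 in both fits). Direction thus turned in both, and neither passed. No member was called in either fit across all genes with that covariate.

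**Figure D5:**
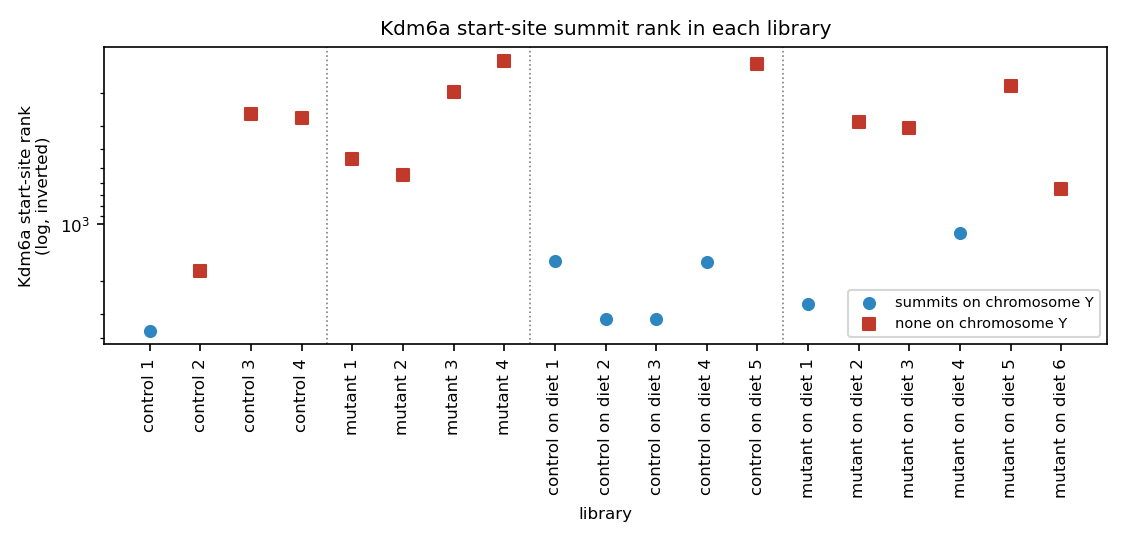
Rank of the summit at Kdm6a's listed start site in each of the 19 libraries, on an inverted log axis, with circles for libraries with summits on chromosome Y and squares for those with none. The 7 circles lie between 1107 and 3659 and the 12 squares between 135 and 1773.

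The other genes of these pathways, 126 in 8 lists of further BAF, Polycomb, corepressor, methyltransferase, demethylase, acetyltransferase, remodeller and DNA methylation genes, were read beside the members. An end summit was present in every library for 7 of 17 other BAF genes and 13 of 23 other Polycomb genes, against 36.6% of all protein-coding genes. It was for 10 of 19 corepressor genes, 13 of 22 methyltransferases and 8 of 11 demethylases. It was for 9 of 16 acetyltransferases and deacetylases, 8 of 12 remodellers and 5 of 6 DNA methylation genes. All 8 lists lay above the share of all genes, so occupancy above it was not particular to the 41 members. On summits per gene, 0 of 108 tested passed in any of the 6 contrasts, and on rank 0 of 73. At an unadjusted p of 0.05 for mutants minus controls, 11 of 108 passed on summits (4 up, 7 down) and 7 of 73 on rank, all 7 farther from the top in mutants, against the 5.72% and 16.6% of all genes above.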

How the data were processed

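ATAC-seq of Prom1+ forebrain progenitors gave 19 lists of MACS2 summits, called by the authors in each library. Per the submitters' processing notes, BWA, MACS2, Signac and DiffBind were used, with mm10 (GRCm38). The deposited score of a summit is −log10 of the peak's q-value, taken from the MACS2 format. Versions and calling thresholds are not given in the sources used here. A summit list holds no reads, so library depth is unknown. The length of the list and the score of its last summit kept are given instead, and neither measures depth.

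The 29112 best-scoring summits of each library, the length of the shortest list, were kept. Gene ends came from the GRCm38.p6 RefSeq table (21887 protein-coding genes, without strand), and start sites, strand and sequence from the RefSeq promoter table of the same build. Each summit was assigned to the nearest gene end within 100 kb. limma 3.58.1 in R 4.3.3, with trend and robust steps and Benjamini-Hochberg adjustment over all genes tested, was run on log2(summits + 0.5) over genes averaging 1 summit or more, and on log2 rank for genes with an end summit in all 19 libraries. All 4 groups shared 1 fit. Region presence was tested with exact tests. The scripts were checked on simulated data.

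The text names the 2 members with the smallest p in each contrast and fit, members lacking an end summit in some libraries, fixed pairs, extremes of rank and of summit number, and members beside a separated region. The members and lists were chosen with earlier results of these data known. The chromosome Y covariate, start-site occupancy and stratified region tests were chosen after seeing the data.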

Additional observations from a re-analysis of the deposited data

Results flagged for a closer look

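Over 112 checks of member ranks and library totals within groups, 3 single libraries stood far from the rest of their group, where chance alone would flag about 5% of groups. Smarcb1, a core BAF subunit, ranked 5021 in control library 2, nearer the top than the other 3 controls. Cbx8 ranked 714 in mutant library 6 with the diet, while the other 5 of that group lay between 2492 and 3203. Kdm6a's start-site summit ranked 2655 in mutant library 1 with the diet, one of the 7 libraries with summits on chromosome Y.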

How the results depend on the processing

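Across 432 recomputed counts of members, 417 stayed within 1.5 times the value reported. On ranks as a percentile of all deposited summits, 1 member was called for the diet in mutants (Smarcc2) and 3 for mutants with the diet minus controls (Bmi1, Cbx8 and Jarid2, limma adjusted p = 0.0499, 0.0487 and 0.0495), against 9.24% and 13.4% of all genes, whose own medians there were 0.58 and 0.81. The cause was not tested. With lists cut shorter, 14 members (34.1%) had an end summit in every library, against 23.6% of all genes. Leaving out each library in turn gave 0 to 1 members called on summits per gene in the contrasts of mutants, controls with the diet and mutants with the diet with controls and in the interaction (Actl6a, without control library 3). On rank it gave 0 to 1 for mutants minus controls (Cbx8) and for the diet in mutants (Hdac1), each without mutant library 1 or 2. Separated member regions numbered 1 to 2 for mutants minus controls (Actl6a added without control library 3, Kdm6b without mutant library 1, where 0.379% and 0.448% of all regions were separated) and 0 to 1 for controls with the diet and mutants with the diet minus controls (Actl6a without control library 3, against 0.582% and 0.577%). Of 690 recomputed values of named members, 23 lost or turned their direction, none of them called. Actl6a's difference in summits was 0 with shorter lists, with ends within 10 kb and over the gene body, settings that leave out the summit that varied. In all deposited summits the Actl6a difference was 0 for the diet in controls, −0.43 for the interaction and still −0.49 for mutants with the diet minus controls. In all deposited summits Kdm6b was 0.11 for mutants minus controls and −0.35 for the diet in mutants, and Smarca2 −0.37 for the diet in controls. With shorter lists Eed was 0.081 for the diet in mutants and 0.33 for mutants with the diet minus controls and Tet3 0.19, and Eed was 0 against controls with ends within 10 kb and over the gene body. Actl6b was 0.11 for the diet in mutants on percentile ranks. The titles' replicate numbers are shared between groups. The deviations of same-numbered libraries correlated by −0.30 to 0.43 on rank and −0.14 to 0.16 on summits. The correlation was above 0.1 in 9 of 25 pairs on rank and 2 of 25 on summits. These values cannot tell whether the numbers pair the libraries, since pairs with different numbers were not set beside them. With the replicate block 0 members were called in every contrast of both fits, and over all genes the calls on rank for the diet in mutants went from 1 to 417. Lists without reads give no depth, and a summit near the matched length can be in or out by a small difference in score.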
